A study of Arabidopsis thaliana with 30 samples.

Results

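The transcripts described here were mostly near the lowest intensities of the arrays in seed from harvest to the first hours of light, and stood well above every earlier point after 48 h of light. They were chosen by their measured values. A probe set, the group of oligonucleotides that reads 1 transcript on the array, was a member when its level at 48 h of light, on a scale of log2(mean of 3 arrays + 16), was at least 2.5 above that of each of the other 9 groups. Of 22746 probe sets, leaving out the control probe sets of the array, 187 met this margin. From these, 11 were left out by gene name, among them DFR, EXPA7, EXPA18, PSAN, PORB and LHCB4.2, which leaves 176 members, 0.774% of the whole. Because the choice used the levels of all 10 groups, the height of the members at 48 h of light over the other groups is a description and carries no test.

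Total RNA came from 80 mg of Arabidopsis thaliana Col-0 seed per sample, with no mutant or transgene in any group, and was hybridized to 30 one-colour arrays, 3 per group. Seed was freshly harvested (H), or dry after ripening (0 h, given as 14 days of drying in one label and 15 days of ripening in another). Further seed was stratified on MS medium at 4 °C in the dark for 1, 12 or 48 h (1 h S, 12 h S and 48 h S), and the rest was stratified for 48 h and then held under constant illumination (100 µE) at 22 °C for 1, 6, 12, 24 or 48 h (1 h SL to 48 h SL). Warmth and light began together and run with time after stratification, so that the 3 cannot be told apart. The labels do not say whether replicates were separate cultures, so p-values cover no more than the spread among these arrays, which may be technical.

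As background, a germinating seed lives on stored reserves until the embryonic root has broken through the seed coverings. The root then elongates and forms root hairs, the seedling leaf tissue turns green, and the young plant begins to build new cell wall and to make defence compounds. Growing plant cells enlarge by loosening and rebuilding the wall, in which xyloglucan tethers, cellulose, pectin and glycoproteins rich in hydroxyproline are cut, joined and cross-linked by secreted enzymes.

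The arrays came from whole seed or seedling material labelled seed. Of markers of other tissues, few could be followed by name. The 2 named mature seed markers out of 15 listed were OLEO3, an oleosin of the oil body, at 640.2 at 0 h, 250.0 at 24 h SL and 52.2 at 48 h SL, and the dehydrin LTI30, at 12790 at 0 h, 11.5 at 12 h SL, 13.7 at 24 h SL and 164.7 at 48 h SL. Between 24 and 48 h SL the level of OLEO3 was thus lower at the end and that of LTI30 higher, as in the members. The 2 named root hair markers of 14, EXPA7 and EXPA18, both expansins, were at 268 and 619.7 at 48 h of light, and the 7 green tissue genes listed, all named, ranged from 1337 (PRK, a Calvin cycle kinase) to 5100 (RCA, Rubisco activase). The seed coat gene BAN was between 3.985 and 4.58 in every group, and ICL, the isocitrate lyase of the endosperm list, at 14540, below the 24430 of 24 h SL. Apart from BAN, the levels of these genes differed between 24 and 48 h SL, and their part in the members' levels was not tested. In whole seed, a larger number of cells of one type and more RNA per cell cannot be told apart.

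Only 68 members name exactly 1 gene, 7 name several and 101 carry no gene name in the annotation used here. In that annotation, 13 of the 68 genes have a gene name beyond their locus tag and 55 have only the tag. The roles of most members can therefore not be given from names here. At 48 h SL the mean intensities of the 176 members ran from 104.1 to 14800 with a median of 357. The named members ran from 104.1 to 1943 and the unnamed from 118.8 to 14800. An intensity depends on the probes as well as on the transcript, so that levels are compared between groups and not between probe sets. At 0 h the median over the members was 6.43 and at 12 h SL 5.44, under the median over all probe sets of 12.7 and 17.3. In 84 members every other group had a mean under 16, and in 116 a mean under 32. The 3 arrays at 48 h SL lay above all 27 others in 176 of 176 members, beside 10.8% of all probe sets. The margin itself sets nearly all of this, and nothing is read from it.

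**Figure D1:**
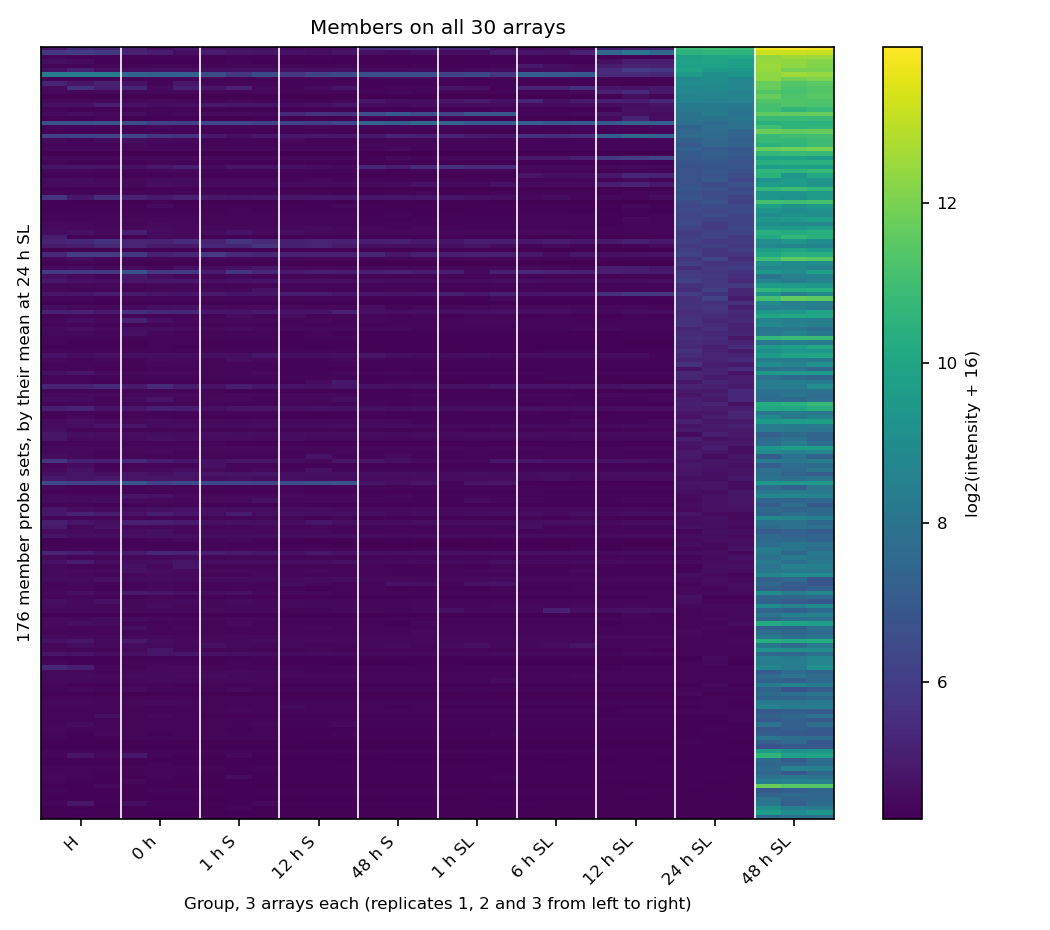
Each row is 1 of the 176 members and each column 1 of 30 arrays, grouped by sampling point from H to 48 h SL, with colour giving log2(intensity + 16) and rows ordered by the mean at 24 h SL. The 3 columns at 48 h SL are bright throughout, the upper rows are already raised at 24 h SL, and a few rows are raised in dry or stratified seed.

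The same rule picked out 187 probe sets for 48 h SL before any were left out by name, and far fewer for each other group. The counts were 24 for 12 h S, 5 for H, 3 for 1 h SL, 2 for 24 h SL and 1 for 6 h SL. They were 0 for 0 h, 1 h S, 48 h S and 12 h SL. Groups differ in how near their neighbours lie: between H and 0 h only 0.321% of all probe sets changed by limma's test. How this bears on the counts was not tested. Because 48 h SL is the last point, with a near group on 1 side only, nothing is read from the contrast. Just inside the margin lay AT5G42720 (2.51, with 127.0 at 48 h SL) and AT4G02850 (2.51, with 125 at 48 h SL), and 3 unnamed probe sets of 4552 to 5177. Just outside lay AT1G23720 (2.495, with 181.7) and AT1G52060 (2.475, with 123.5), and 3 unnamed probe sets of 103 to 1884.

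Among the members with a gene name, those acting on the wall matrix came from several enzyme families. XTH26, a xyloglucan endotransglucosylase/hydrolase that cuts and rejoins xyloglucan chains, read 219, 270.4 and 219.6 on the 3 arrays of 48 h SL and from 4.57 to 8.45 on the other 27. Its 48 h arrays thus stood far above a level near the bottom of the scale, at a mean of 236 ± 29.6 (SD, n = 3), and at 24 h SL it was still at 4.64 ± 0.0629. XTH32, of the same family, read 477, 583 and 515 at 48 h SL, with 4.90 to 75.6 on the other arrays. The highest of those others were the 3 of 24 h SL, at 62.9, 75.6 and 60.6, above the 4.90 to 5.19 of 12 h SL. GH9C1, of the glycosyl hydrolase family whose members cleave cellulose-like glucans, read 207, 181 and 272 at 48 h SL and 5.40 to 12.1 elsewhere.

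Wall proteins and cross-linking enzymes were present as well. HRGP1, a hydroxyproline-rich glycoprotein, one of the proteins that form a network in the wall, read 684, 503.5 and 879.5 at 48 h SL, with 7.86 to 91.6 on the other arrays, the highest of these in dry seed. AT5G66390, named PEROXIDASE 72 in the gene table and one of the secreted class III peroxidases, which oxidize wall phenolics, read 172, 153 and 195 at 48 h SL and 4.52 to 5.14 elsewhere. The probe set of HRGP1 and that of AT5G06630, which read 292, 286 and 501, are of the kind that may also bind related sequences, so that their signal may be shared.

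Members of secondary metabolism and defence were the next group. JAL22, a jacalin-related lectin, a protein that binds sugars, had the second largest margin among the named genes at 4.17 and read 1360, 1194 and 1272 at 48 h SL. AT3G13610 (F6'H1), the hydroxylase that makes the precursor of the coumarin scopoletin, read 224, 155 and 170 at 48 h SL, with no other array above 4.96. BGLU15, a β-glucosidase, read 370.1, 326 and 311, and PDF2.5, of the plant defensins, small cysteine-rich proteins, 222, 290 and 244. ECS1 read 295, 269 and 238, with no other array above 15.9. In each of these 5 genes the 48 h arrays and the other 27 did not overlap, as the rule requires of the group means.

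Few regulators or plastid proteins among the members carried a name. For plastid proteins the exclusion sets part of this: PSAN, PORB and LHCB4.2 passed the margin and were left out by name. CaS, the calcium sensing receptor, a protein of the thylakoid membrane, read 895, 611 and 747 at 48 h SL and 65.8, 75.4 and 70.8 at 24 h SL. ATC, related to the flowering repressor TERMINAL FLOWER and named centroradialis in the gene table, read 190.2, 111 and 194, with 4.51 to 5.04 on the other arrays. The transcription factor gene tny (TINY), of the AP2 class, read 132, 111 and 143 with 4.85 to 8.24 elsewhere. The mean of ATC at 48 h SL was 165 ± 46.5.

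**Figure D2:**
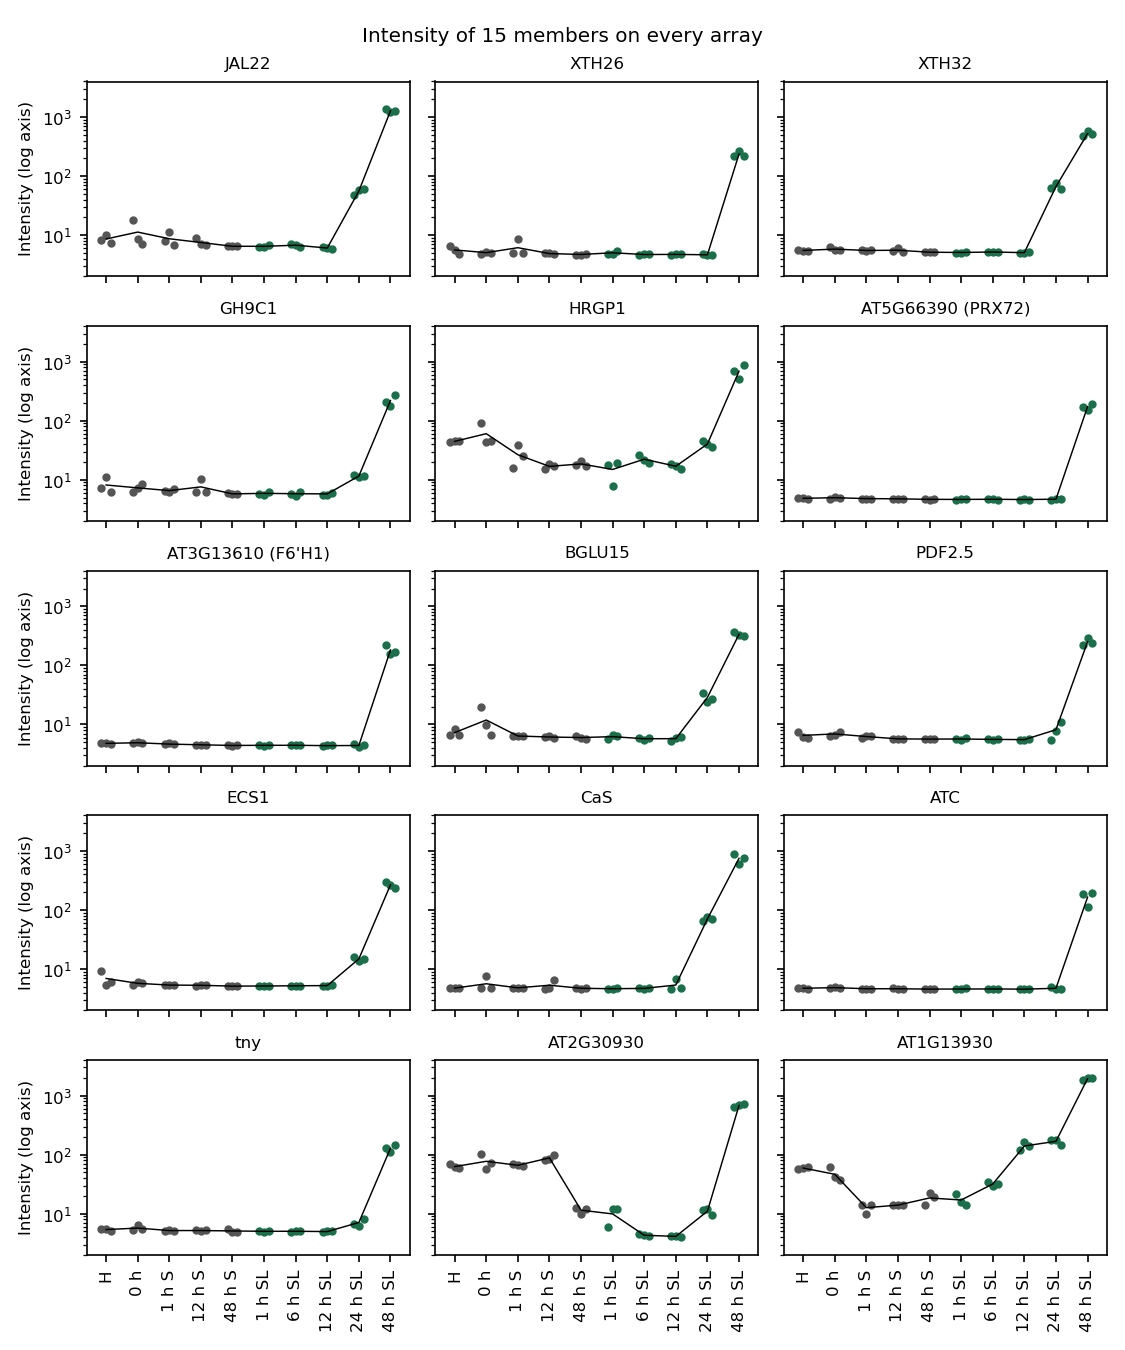
Intensity on every array (points, log axis) and the mean of each group (line) for 15 members, with H, 0 h and S groups in grey and SL groups in green. The 13 genes with a gene name and AT2G30930 and AT1G13930 all end above 100 at 48 h SL, and XTH32, JAL22, CaS and BGLU15 have left the floor by 24 h SL.

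The 55 genes that the annotation used here lists only by locus tag include most of the largest margins. The exclusion by name acts on the symbols in the files, so that a gene listed there by locus tag only, such as AT4G14090, cannot be left out through a family name such as UGT. AT4G14090 had the largest margin of the named members, at 4.26, and read 519.7, 322 and 304 at 48 h SL with 4.25 to 5.36 on the other 27 arrays. AT5G04960 read 339, 317 and 433, AT4G33550 308, 347 and 347, and AT3G54040 232, 358 and 363, each with no other array above 8. The named probe sets with the highest intensity at 48 h SL were those of AT1G13930 (1943 ± 102), AT5G44020 (1756 ± 119.8), AT1G30870 (1724 ± 168), AT2G10940 (1708 ± 282) and AT5G17820 (1704 ± 70.7). At the other end AT5G41400 reached 104.1 ± 12.4 and AT5G62210 115 ± 15.9.

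Among the unnamed probe sets the margin reached 7.10, in a probe set whose mean was 2935 ± 394 at 48 h SL and whose highest other array read 6.73, and another went from a mean of 1856 at 24 h SL to 14800 ± 848. Over all members the SD of the 3 arrays at 48 h SL was 1.65% to 35.2% of the mean, with a median of 12.98%, beside 8.65% over the 5863 probe sets of at least 100 at 48 h SL. No 1 array carried the members: 63 were highest on replicate 1, 58 on replicate 2 and 55 on replicate 3.

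Whether the members had begun to rise before 48 h of light is a difference that the rule did not use, although it bounds both levels from above. Between 12 and 24 h SL, 57 of 176 members (32.4%) were higher by limma's test at an adjusted p under 0.05 and a log2 difference of at least 1, and 0 were lower, beside 4.92% higher and 2.30% lower (7.22% in all) among all 22746 probe sets. The median over the members was 5.44 at 12 h SL, near the floor, so nothing is read from the 0 lower. The median difference was 0.40 on the log2 scale, against -0.01 over all probe sets. The 24 h arrays all lay above the 12 h arrays in 121 members (68.8%), beside 18.9% of all probe sets. In the other 119 members a rise by 24 h SL did not pass the test. An unadjusted p under 0.05, in either direction, was found in 111 of all 176. That count has no share over all probe sets beside it, so nothing is read from it.

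The 18 named genes in the first set went from a median of 5.30 at 12 h SL to 64.02 at 24 h SL. The fit estimated 1 spread per probe set over all 10 groups, most of them near the floor in these genes. The SE and p that follow may therefore understate the spread of the raised 24 h SL arrays. AT2G10940 changed most, from 5.40, 5.76 and 7.27 to 154, 203 and 230.1 (log2 difference 3.24 ± 0.09 SE, adjusted p = 5.10e-18), followed by AT5G44020 (2.89 ± 0.05, adjusted p = 2.265e-22) and AT5G17820 (2.81 ± 0.03, adjusted p = 3.48e-26). AT3G49960, AT4G16980 and AT1G30870 rose by 2.46, 2.40 and 2.29 on the same scale. Of the genes with a name, CaS rose by 2.02 ± 0.08 (adjusted p = 2.44e-15), XTH32 by 1.96 ± 0.05 (adjusted p = 1.29e-18), JAL22 by 1.70 ± 0.10 (adjusted p = 2.30e-12) and BGLU15 by 1.03 ± 0.10 (adjusted p = 1.92e-08).

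The differences of BGLU15, AT5G16030 and AT3G02120 lay close to the size threshold and fell below it on quantile normalization, at 0.83, 0.83 and 0.84, and without replicate 1 of 24 h SL, at 0.94, 0.93 and 0.96. Without replicate 2 of 24 h SL, AT5G16030 was at 0.99 and AT3G02120 at 0.91. With 64 in place of 16 added, 31 members passed, and CaS (0.96), XTH32 (0.92) and JAL22 (0.77) did not. With 1 added, 86 passed.

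Genes with no rise that passed by 24 h SL stood at a median of 8.13 there over the 119 members, and 242 at 48 h SL. XTH26, PDF2.5, GH9C1, ECS1, ATC, tny, AT5G66390 and AT3G13610 were all among them, with log2 differences from -0.005 to 0.54 between 12 and 24 h SL. The 57 risen members had a median of 85.1 at 24 h SL and 1394 at 48 h SL. At 24 h SL they were at a median of 9.41% of their level at 48 h SL and the 119 others at 3.57%. The rule bounds both shares from above. The sets were split by a rise at 24 h SL, which favours a higher level and share there in the risen set, so nothing is read from that contrast.

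**Figure D3:**
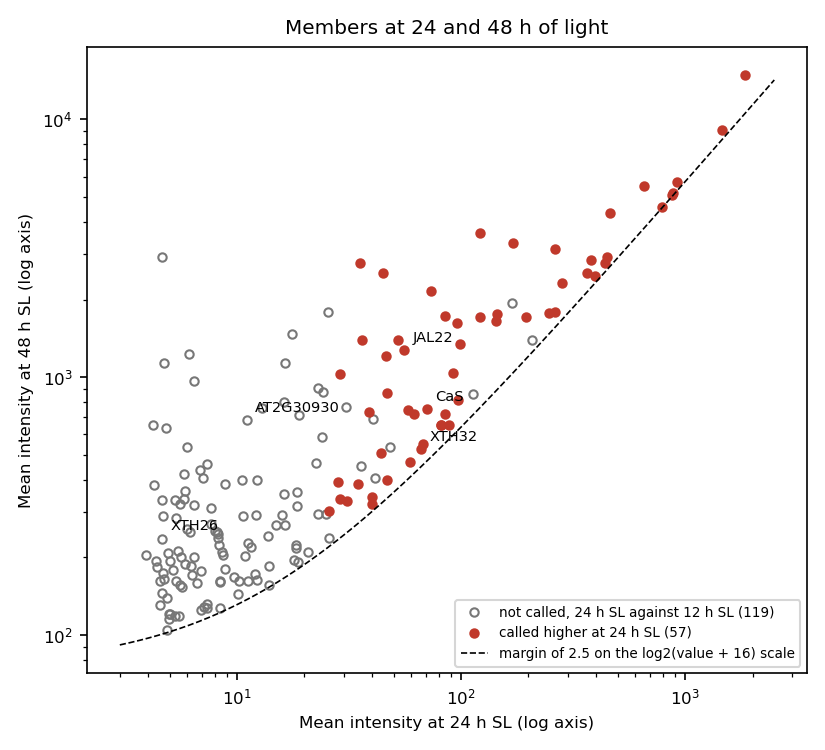
Mean intensity of each member at 24 h SL (x) and 48 h SL (y), both on log axes, with filled points for the 57 members called higher at 24 h SL than at 12 h SL and open points for the 119 others. The dashed line is the margin that chose the members. The filled points lie at 25.7 or more at 24 h SL, which the size threshold of the test nearly sets.

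Against the end of stratification 58 members (33.0%) were higher at 24 h SL and 0 lower. Over all probe sets the shares were 13.1% and 12.9% (26.0% in all). The median over the members was 5.40 at 48 h S, near the floor, so nothing is read from the 0 lower. Of the 58, 55 were among the 57 that rose between 12 and 24 h SL, and both comparisons share the arrays of 24 h SL. AT1G13930 was one of the 3 others: it stood at 18.5 ± 4.05 at 48 h S, 31.9 ± 2.57 at 6 h SL, 140.2 ± 21.0 at 12 h SL and 169 ± 20.8 at 24 h SL (2.42 ± 0.12 from 48 h S, adjusted p = 5.85e-14), then 1943 ± 102 at 48 h SL. AT3G26450 also rose from 48 h S (1.31 ± 0.10, adjusted p = 1.28e-10), with 6.89 there, 16.04 at 12 h SL and 41.3 at 24 h SL. With 64 added, 33 members passed.

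Before light, the members' levels are held low by the rule, and with 16 added a probe set near the floor can hardly reach a log2 difference of 1, so nothing is read from how few passed. Between 0 h and 48 h S 2 were higher and 2 lower by limma, 2.27% of 176 beside 21.3% of all probe sets. AT2G30930 read 101, 58.2 and 72.7 at 0 h and 12.65, 10.01 and 11.8 at 48 h S (-1.74 ± 0.11, adjusted p = 3.73e-12). Its mean had been 88.3 ± 9.02 at 12 h S, was 4.13 ± 0.0874 at 12 h SL, and was 682 ± 37.5 at 48 h SL. The other, HRGP1, was at 60.3 ± 27.1 and then 18.6 ± 1.92 (-1.09 ± 0.21, adjusted p = 8.87e-05). That difference rests on replicate 1 of 0 h, which read 91.6 beside 43.7 and 45.7, and was -0.81 without it. The 2 that rose were unnamed probe sets, from 6.96 to 89.97 and from 63.9 to 156, with differences of 2.20 and 1.11.

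Over ripening, 0 of 176 members passed limma's test between H and 0 h, beside 0.321% of all probe sets. Nothing is read from this for the same reason. An unadjusted p under 0.05 was found in 19, a count without a share over all probe sets, from which nothing is read either. Without replicate 1 of 0 h 2 members passed as lower, and without replicate 1 of H 1 did. In 7 members a group from H to 12 h S had a mean of at least 32, and 3 of them are named: AT2G30930, HRGP1 and AT1G13930, the last with 59.5 ± 2.37 in H and 12.7 ± 2.41 at 1 h S. These genes were thus measured above the floor in seed, and in all 3 the mean was lower at a later point before 48 h SL.

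**Figure D4:**
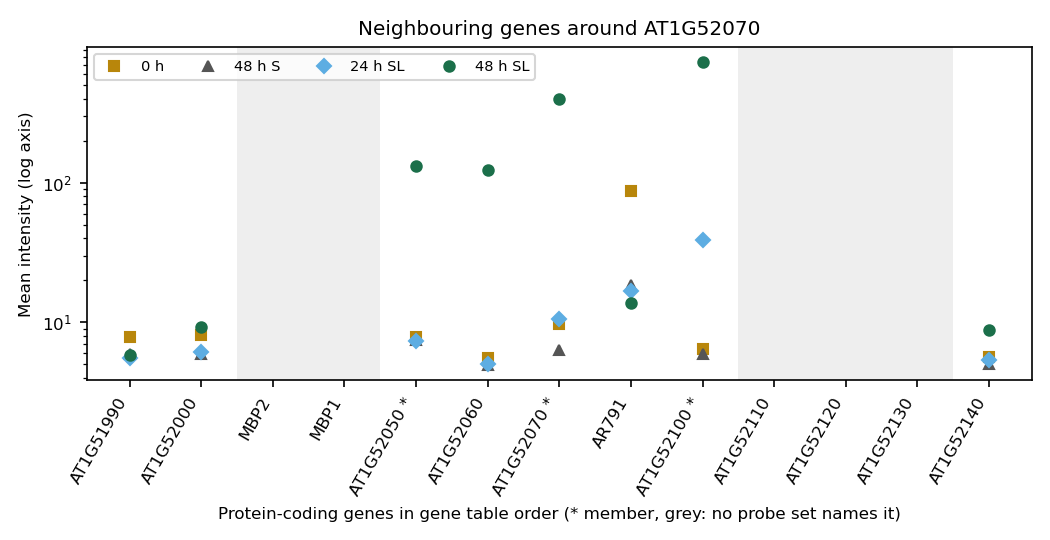
Mean intensity (log axis) of neighbouring protein-coding genes of chromosome 1 in gene table order at 0 h, 48 h S, 24 h SL and 48 h SL, with members marked by a star and genes that no probe set names in grey. AT1G52050, AT1G52060, AT1G52070 and AT1G52100 stand at 123 or above at 48 h SL while the measured outer genes stay under 10 in all 4 groups and AR791 goes from 87.2 at 0 h to 13.9 at 48 h SL.

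Of the named members, AT1G52050, AT1G52070 and AT1G52100 lie close together on chromosome 1. In the gene table of assembly TAIR10.1, AT1G52050 and AT1G52070 have 1 protein-coding gene between them, as have AT1G52070 and AT1G52100. AT1G52050 read 135, 163 and 96.1 at 48 h SL, AT1G52070 415, 421 and 361, and AT1G52100 761, 765 and 673. The gene between the first pair, AT1G52060, was 1 of the 5 probe sets just outside the margin, at 123.5. The gene between the second pair, AR791, was at 87.2 at 0 h and 13.9 at 48 h SL. Of 3 further measured genes on either side, AT1G51990, AT1G52000 and AT1G52140 were at 5.85, 9.21 and 8.78 at 48 h SL, and the myrosinase-binding protein genes MBP1 and MBP2 next to AT1G52050 are named by no probe set. AT4G11190 (186, 236 and 182) and AT4G11210 (124, 196 and 114) had 0 protein-coding genes between them, and AT3G22570 and AT3G22620 had 3. No similarity of sequence was examined, and probe sets of related genes can share signal.

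Few members could be placed in a gene family by name. Of 29 named expansin and xyloglucan endotransglucosylase probe sets, 8 were higher and 3 lower at 48 h SL than at 24 h SL by the same test, beside 4.60% and 3.04% (7.65% in all) of all probe sets, with a median difference of 0.01 against 0.00. Of the 8, 4 are past the margin and so fixed by it: XTH26 and XTH32, and EXPA7 and EXPA18, which were left out of the members by name. The other 4 did not reach the margin. XTH20 rose from 6.75 ± 0.294 to 84.6 ± 20.4 and EXPB3 from 4.71 ± 0.488 to 59.7 ± 9.62. EXPA4 rose from 69.8 ± 5.93 to 220.5 ± 23.2. EXPB1 rose from 30.8 ± 3.38 to 79.6 ± 7.93, but had stood at 98.4 at 48 h S. EXPA8, from 451 ± 56.7 to 14.8 ± 2.63, XTH19, from 1951 ± 67.1 to 740.1 ± 93.3, and EXPA9, from 1212 ± 27.7 to 533 ± 66.3, fell.

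Between 24 and 48 h SL 4.60% of all probe sets rose and 3.04% fell. The lists that follow are short or hold many probe sets near the floor, so nothing is read from their counts. Of 22 β-glucosidase probe sets 3 rose over that day and 0 fell. Those that rose were BGLU15, by the rule, BGLU46, from 14.1 to 75.0 (log2 difference 1.59), and BGLU16, from 10.01 ± 2.94 to 39.9 ± 8.23. Of 6 class III peroxidases that carry such a name 2 rose, AT5G66390 by the rule and PRXR1 from 806 ± 70.8 to 3112 ± 111.7. Of 62 transcription factor probe sets matched by family names 0 were higher and 0 lower over the same day by limma. No member belonged to the lists of cytochromes P450 (22 probe sets), ion and nitrogen transporters (15), glutathione transferases (13) or peptidases (13), in which 1, 1, 3 and 1 rose and 0 fell. The lists hold only genes that the annotation names by family, and most members have no such name. Members of these families may thus be missing from the counts.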

How the data were processed

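Intensities of 22810 probe sets on 30 arrays were used as deposited. The processing notes of the submitters name RMA, MAS5 and Partek; which one made the deposited intensity values is unknown here. They ran from 2.54 to 32818, array medians from 11.8 to 19.4, and replicates correlated at 0.985 to 0.998. Detection calls were not used, and 64 control probe sets were set aside. The number of arrays limits the precision of every value.

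Probe sets were named from the platform's annotation (13513 with 1 gene, 503 with several, 8730 with none), and 13436 were matched to the TAIR10.1 gene table. Clone names among its synonyms were ignored when families were matched.

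Fits used log2(intensity + 16), which understates changes of dim probe sets. By limma 3.58.1 (lmFit and eBayes, R 4.3.3), each group mean came from the 3 arrays of its group. The spread of each probe set was estimated from the 30 arrays together. Called changes have a log2 difference of at least 1 and an adjusted p under 0.05, by Benjamini-Hochberg across the 22746 probe sets. The fit was run on simulated data in which a probe set had the same spread in every group. The members lie near the floor in most groups, so nothing is read from that run for them. Other steps ran in Python 3.11.15, pandas 2.3.3, numpy 2.4.6 and matplotlib 3.10.9.

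Members and lists were chosen with earlier results of these data known. The genes named were the 20 members with the largest margin, the 10 highest, up to 4 per family list, members sharing a family name, the 6 largest changes per comparison and direction, and 5 probe sets on each side of the margin. The genes with a gene name, the neighbours of members and the family genes that moved without being members were taken after their values were seen. Alternatives changed the amount added, the normalization, the filter on dim probe sets, the arrays in the fit and the replicate block.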

Additional observations from a re-analysis of the deposited data

How the results depend on the processing

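The number of members depended most on the amount added before log2: 331 with 1 added, 68 with 64 added and 103 with a margin of 3, against 176. It was 202 after quantile normalization, 156 with arrays centred on their median, 129 when the lowest array at 48 h SL was set against the highest other array, and 175 to 180 with any 1 array left out, of which at least 166 were the same probe sets. The count between 24 and 12 h SL, 57, was 86 with 1 added and 31 with 64, and 52 to 62 with an array left out. That between 24 h SL and 48 h S, 58, was 33 with 64 added and 54 to 62 with an array left out. That between 48 h S and 0 h, 4, was 8 with 1 added, 1 with 64 and 3 to 4 with an array left out. That between 0 h and H, 0, was 3 with 1 added, 1 with arrays centred and 0 to 2 with an array left out. The cause was not tested. Of 520 recomputed values of 40 called differences of named genes, 471 kept the call, 49 did not, 25 of them with 64 added, and 0 changed sign.

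The replicate numbers are shared between groups but did not pair the arrays: the correlations of same-numbered arrays' deviations ran from -0.263 to 0.302. With the replicate number as a block (replicate block) the counts were 57, 58, 4 and 0, as without it. Signal over background limits the account: 84 members had a mean under 16 in every group but 48 h SL, where small differences cannot be told from the floor.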
